A study of Mus musculus with 2 samples.

Results

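The genes described here encode the CD3 chains and the co-receptors of the T cell surface: Cd3e, Cd3d, Cd3g, Cd247, Cd4, Cd8a, Cd8b1, Cd5, Cd6 and Cd28. A peak was assigned to one of these 10 genes if it overlapped the gene body or lay within 50 kb of any annotated start site, and the neighbours Cd3e, Cd3d and Cd3g, like Cd8a and Cd8b1, were treated as a single locus, which gave 7 loci. By this rule 11 of the 5910 peaks on nuclear chromosomes belonged to these genes. The peaks mark chromatin that was precipitated with a rabbit monoclonal antibody against Notch1 (clone D1E11) and sequenced (ChIP-seq). The cells were thymic gamma delta T cells, taken on postnatal day 0 to 3 from C57BL/6 mice of wild-type genotype. An input library from the same kind of cells, with no antibody, is not analysed here. Each library is a single sample, so the values below carry no replicate error and no test between conditions could be made. The depth of the library is unknown from the files used. How the cells were purified and how many mice were used is not given in the labels.

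The T cell receptor binds antigen but cannot signal by itself. Its signal passes through CD3 gamma, delta and epsilon and through the zeta chain encoded by Cd247, whose cytoplasmic tails carry the tyrosine motifs that the kinases of the pathway use. In mice the gamma delta receptor is largely assembled without CD3 delta. CD4 and CD8 bring the kinase Lck to the receptor, CD5 and CD6 are related scavenger-type receptors that tune its signal, and CD28 gives costimulation. Notch1 is a surface receptor whose released intracellular domain acts on DNA with the protein RBPJ, and it directs thymic progenitors into the T lineage.

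Of the 10 genes, 6 had at least 1 peak, namely Cd247, Cd3e, Cd3d, Cd3g, Cd4 and Cd5, and of the 7 loci 4 had one. By the same rule 31.7% of all 21938 protein-coding genes had a peak. Cd8a, Cd8b1, Cd6 and Cd28 had none. The peaks were unevenly spread, with 7 in the window of Cd247 and 4 at all the other loci together. The peak of highest score lay in the first intron of Cd247 and the next highest upstream of Cd4. The sequences of the highest peak of each locus are shown here, with those at the Cd247 start site and at the pair of RBPJ cores in Cd247, because the results below turn on them. They are from the plus strand of mouse build GRCm38. Capitals mark matches to strings of RBPJ, RUNX, ETS, E protein, GATA and TCF/LEF factors on either strand. For peaks longer than 300 bases the 300-base stretch with most matches is shown, and at the Cd247 start site only the part before the first annotated base of the gene.
Cd247 start site, chr1:165788577-165788680: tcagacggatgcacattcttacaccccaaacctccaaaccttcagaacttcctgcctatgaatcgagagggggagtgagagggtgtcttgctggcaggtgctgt
Cd247 intron, highest score, chr1:165822208-165822460: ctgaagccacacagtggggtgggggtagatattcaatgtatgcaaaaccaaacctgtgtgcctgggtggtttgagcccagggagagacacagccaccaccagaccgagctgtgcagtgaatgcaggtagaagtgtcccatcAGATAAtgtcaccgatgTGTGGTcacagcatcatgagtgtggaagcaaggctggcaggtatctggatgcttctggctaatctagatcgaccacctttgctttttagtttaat
Cd247 intron, paired cores, chr1:165844038-165844337: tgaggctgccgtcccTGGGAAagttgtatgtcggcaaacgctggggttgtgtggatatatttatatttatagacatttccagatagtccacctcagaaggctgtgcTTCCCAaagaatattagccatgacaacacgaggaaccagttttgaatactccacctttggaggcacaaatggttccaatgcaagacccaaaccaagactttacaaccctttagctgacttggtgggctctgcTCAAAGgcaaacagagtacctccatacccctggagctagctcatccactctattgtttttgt
Cd4 upstream, chr6:124900236-124900535: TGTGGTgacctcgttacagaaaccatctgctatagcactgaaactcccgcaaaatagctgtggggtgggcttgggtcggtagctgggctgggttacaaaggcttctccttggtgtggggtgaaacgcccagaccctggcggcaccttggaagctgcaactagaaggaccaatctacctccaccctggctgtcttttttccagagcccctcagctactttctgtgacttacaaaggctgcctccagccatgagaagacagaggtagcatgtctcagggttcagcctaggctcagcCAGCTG
Cd3 cluster, upstream of Cd3e, chr9:45041281-45041580: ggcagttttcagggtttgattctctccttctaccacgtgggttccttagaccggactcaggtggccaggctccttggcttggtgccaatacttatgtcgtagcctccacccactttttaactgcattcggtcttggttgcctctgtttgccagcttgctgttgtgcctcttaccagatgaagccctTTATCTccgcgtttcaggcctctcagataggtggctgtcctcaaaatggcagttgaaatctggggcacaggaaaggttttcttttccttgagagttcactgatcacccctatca
Cd5 downstream, chr19:10709543-10709842: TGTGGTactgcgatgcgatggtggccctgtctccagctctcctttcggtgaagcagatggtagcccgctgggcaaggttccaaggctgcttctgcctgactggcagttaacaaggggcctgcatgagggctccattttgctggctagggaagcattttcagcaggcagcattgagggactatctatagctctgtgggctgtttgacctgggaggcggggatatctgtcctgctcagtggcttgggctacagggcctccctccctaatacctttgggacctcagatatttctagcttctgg

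Cd247 was the member with most peaks. It encodes the zeta chain and lies on chromosome 1 from 165788681 to 165877277 on the plus strand, a body of 88.6 kb. Of its 7 peaks, 6 overlapped the gene body, and 0.0775% of protein-coding genes had at least 6 in their body. At least 7 peaks in the whole window were found at 0.242% of protein-coding genes. Among the 17 genes with at least 6 peaks in the body, Cd247 ranked 7 by peaks per Mb of body, with 67.7 per Mb, beside a median of 53.9 per Mb over the 17. The bodies of the other 9 members held 0 peaks.

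The first of these peaks covered the outermost start sites of Cd247, at chromosome 1 from 165788577 to 165788976, and scored 723. The score is the authors' own value for each peak, and is used here only to rank peaks within their list, in which the median was 718. Of the 10 genes 1, Cd247, had a peak within 1 kb of a start site, beside 5.16% of protein-coding genes. This peak also overlapped the noncoding transcript Gm16565. It had a GC content of 58.0%, the highest of the 11 peaks. Its part upstream of the gene, printed above, held no match to the strings searched. A single RBPJ core, the string TGGGAA, lay on the minus strand 193 bp downstream of the outermost start site, within an annotated exon, and a TCF/LEF string, CTTTGA, lay at the first bases of the gene.

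The other 5 peaks of the gene body all lay in intron 1, which is 66.3 kb long, of the 8-exon transcript of Cd247. The highest of them, at 165822208 to 165822460, scored 1399.9, above 94.5% of all nuclear peaks and rank 327 in the list. It was also the narrowest of the 11 peaks, at 253 bp. Its sequence held a GATA string, AGATAA, from base 142 to 147 and a RUNX string, TGTGGT, from base 159 to 164 of the printed run.

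A further 4 intronic peaks followed within 11.9 kb, separated by gaps of 3.98, 1.69 and 4.79 kb. In order along the gene these peaks lay 20.2, 15.9, 13.8 and 8.63 kb upstream of an internal start site of Cd247, nearer to it than to the outermost start site. Their scores were 562, 701, 579.7 and 900.3 in order along the gene. The peaks of 562 and 579.7 ranked low in the list, above 7.65 and 9.61% of all peaks, and that of 900.3 stood above 74.8%. The peak of 579.7, at 165844008 to 165844369, held both remaining RBPJ cores of the 11 peaks. They pointed in opposite directions with 85 bases between them, at bases 16 to 21 and 107 to 112 of the printed run, and a TCF/LEF match followed at bases 239 to 244. The same peak overlapped Gm32999, a gene model of the annotation's class TEC. The peak of 701 held none of the factor strings.

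The last peak, at 165914147 to 165914416, met the rule only through an internal start site of Cd247, from which it lay 49.5 kb downstream. It scored 793 and lay 0.864 kb from a start site of Pou2f1, which encodes the octamer-binding factor Oct-1, and overlapped that gene. It was the member peak closest to the limit of the rule on the inner side. Outside the limit, the nearest peak not assigned to any member lay 62.2 kb from Cd28, and 2 more lay 79.7 and 82.2 kb upstream of Cd247, where Rcsd1 was the nearest gene.

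**Figure D1:**
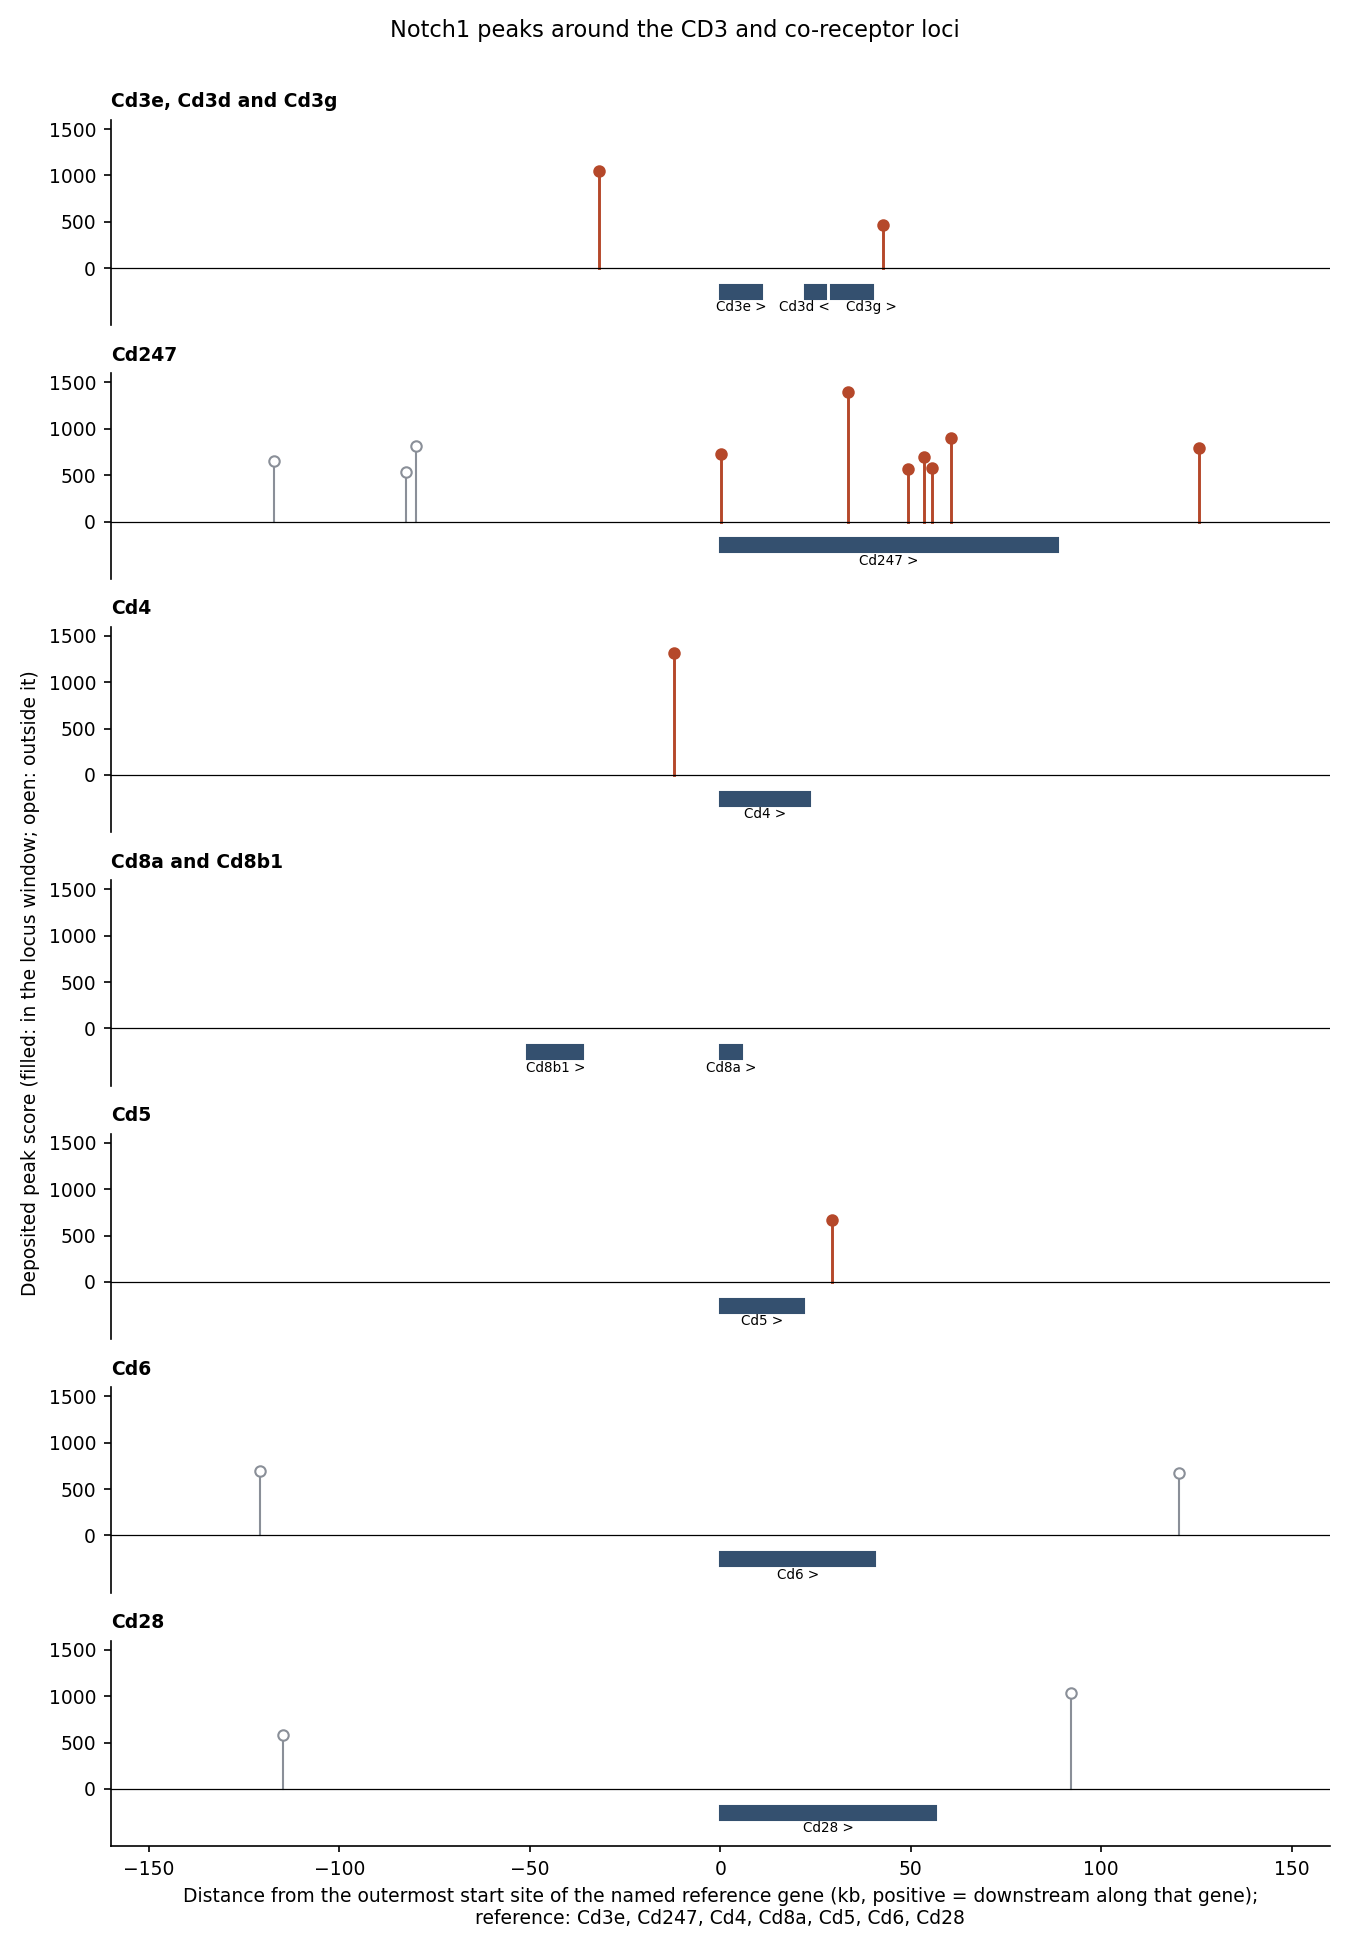
Each panel shows 1 of the 7 loci; the horizontal axis is the distance in kb from the outermost start site of the reference gene named under it, the vertical axis the deposited peak score, and bars below the line are gene bodies with an arrow for their direction. Filled points are peaks assigned to the locus and open points are peaks outside its window; Cd247 held 7 filled points, Cd4 and Cd5 held 1 each, the Cd3 cluster 2 and the other loci 0.

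The CD3 gamma, delta and epsilon genes lie side by side on chromosome 9, from 44969572 to 45009627. No peak overlapped any of the 3 gene bodies, and 1 peak flanked the cluster on each side. On the Cd3g side, a peak from 44966814 to 44967200 lay 2371 bp beyond the 3' end of Cd3g and was within 50 kb of all 3 genes. It scored 469, the lowest of the 11 peaks and above only 2.20% of the list, and the nearest protein-coding start site was that of Ube4a, a ubiquitin chain elongation factor, at 1.21 kb. It was also the most repeat-rich member peak, with 37.0% soft-masked bases, and held none of the named strings. On the Cd3e side, a peak from 45041241 to 45041621 lay 31.6 kb upstream of Cd3e and scored 1042, above 84.5% of all peaks. It stood at a start site of Mpzl2, an immunoglobulin-type adhesion protein, at a distance of 0.804 kb. From Cd3d and Cd3g the same peak was 55.3 and 60.8 kb away, just past the limit. Its single match, at bases 187 to 192 of the printed run, was to the GATA string.

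Cd4, which encodes the co-receptor for MHC class II, lies on the minus strand of chromosome 6 from 124864692 to 124888221. Its only peak spanned 124900119 to 124900715, 11.9 kb upstream of the start site, in the 16139 bp of intergenic sequence between Cd4 and Lag3. It scored 1313, above 93.1% of all peaks, and with 597 bp it was the widest of the 11. It lay nearer to a start site of Lag3, an inhibitory receptor related to CD4, at 9.34 kb, so both genes' windows held it. An enhancer active in thymocytes is known upstream of Cd4. Its coordinates are not in the files used, and whether the peak overlaps it was not tested. The printed stretch opens with a RUNX string and ends with CAGCTG, a site of the E protein class, and the whole peak held 0 RBPJ cores.

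Cd5 lies on the minus strand of chromosome 19 from 10717116 to 10739002. Its peak, from 10709503 to 10709887, lay 7228 bp beyond the 3' end of Cd5 and inside an intron of Vps37c, an endosomal sorting gene. The nearest protein-coding start site was an internal one of Cd5, 12.2 kb away, and the outermost start site was 29.1 kb away. The peak scored 669.8, above 35.6% of the list, and held 1 RUNX string, at the start of the printed run. Its soft-masked share of 2.86% was the lowest of the 11 peaks.

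Cd8a (chromosome 6, 71373427 to 71379173) and Cd8b1 (71322788 to 71337494), the chains of the co-receptor for MHC class I, stood farthest from any peak. The nearest peak was the same for both, 259.5 kb from Cd8a and 310.3 kb from Cd8b1, at a start site of Kdm3a, a histone demethylase gene. Of all protein-coding genes, 28.9% had their nearest peak farther away than Cd8a had, and 24.4% farther than Cd8b1. Cd6, on chromosome 19 from 10789341 to 10830058, had its nearest peak at 83.1 kb, which was the Cd5 peak. Cd28, on chromosome 1 from 60716800 to 60773359, had its nearest at 62.2 kb, a peak that scored 1039 and lay between Cd28 and Ctla4. The protein-coding start site nearest to that peak was one of Cd28. Over the 10 genes the median distance from a start site to the nearest peak was 23.1 kb, beside 118 kb over all protein-coding genes. The 10 distances are not independent, because Cd3d and Cd3g share their nearest peak, as do Cd8a and Cd8b1, and Cd5 and Cd6. In order, the distances were 0 kb for Cd247, 5.86 kb for Cd3g, 11.9 kb for Cd4, 12.2 kb for Cd5, 14.6 kb for Cd3d and 31.6 kb for Cd3e, followed by Cd28, Cd6, Cd8a and Cd8b1. With a single library there is no spread by which neighbours in this order could be told apart.

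**Figure D2:**
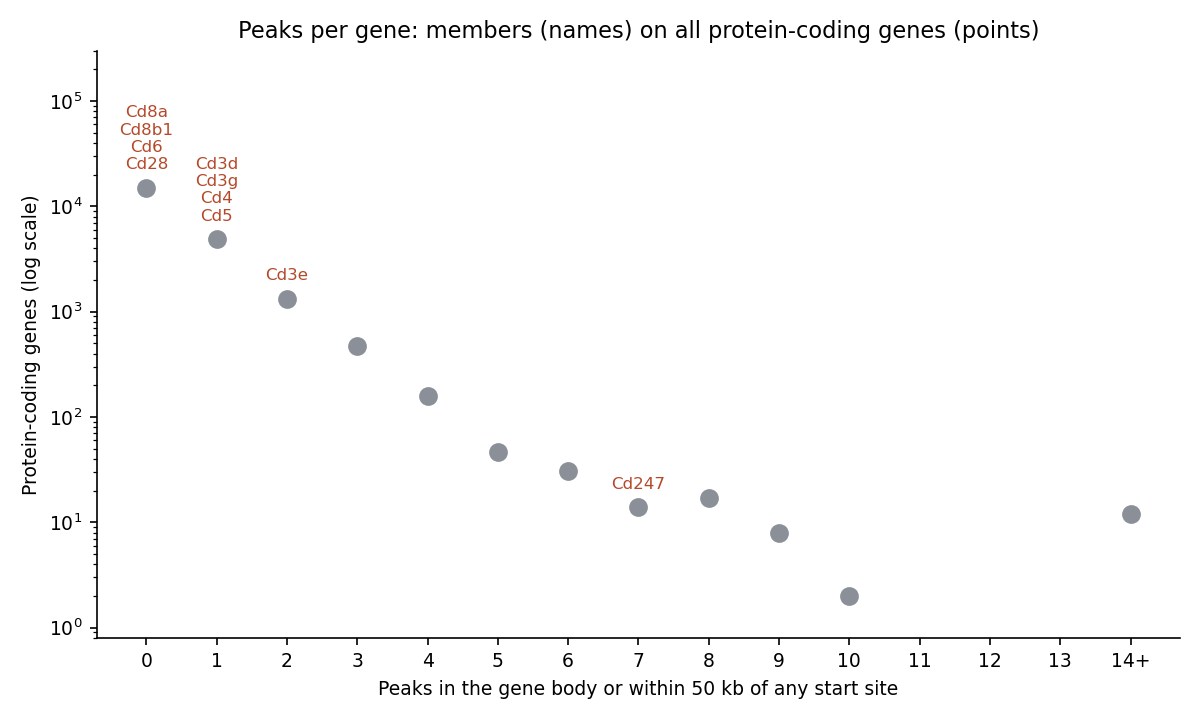
The horizontal axis is the number of peaks in the gene body or within 50 kb of any start site, and each point is the number of protein-coding genes with that many peaks, on a log scale, with the last point pooling genes with still more peaks. Member genes are named above the point they belong to; 4 stood at 0 peaks, 4 at 1 peak, Cd3e at 2 and Cd247 at 7.

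Set against length, the merged windows of the 10 genes held 12.0 peaks per Mb over 0.919 Mb (exact Poisson 95% interval 5.98 to 21.4). The merged windows of all protein-coding genes held 2.83 per Mb (2.75 to 2.91) and the nuclear genome without gaps 2.23 per Mb. Cd247 alone held 39.8 per Mb (16.0 to 82.0). Without it the density was 5.38 per Mb (1.47 to 13.8), an interval that holds the value of the windows of all protein-coding genes. These intervals cover counting error only and take peaks as independent, which close neighbours need not be.

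By score the 11 peaks were spread over the list. Their scores ranged between 469 and 1399.9 with a median of 723, beside a median of 718 over all nuclear peaks. Of the 11 peaks 6 stood at or above 718. In the upper quartile, at 904 and above, stood 3 peaks, those in intron 1 of Cd247, upstream of Cd4 and at Mpzl2. Below the lower quartile of 645 stood 3 others, 2 of them in Cd247 and 1 beside Cd3g.

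**Figure D3:**
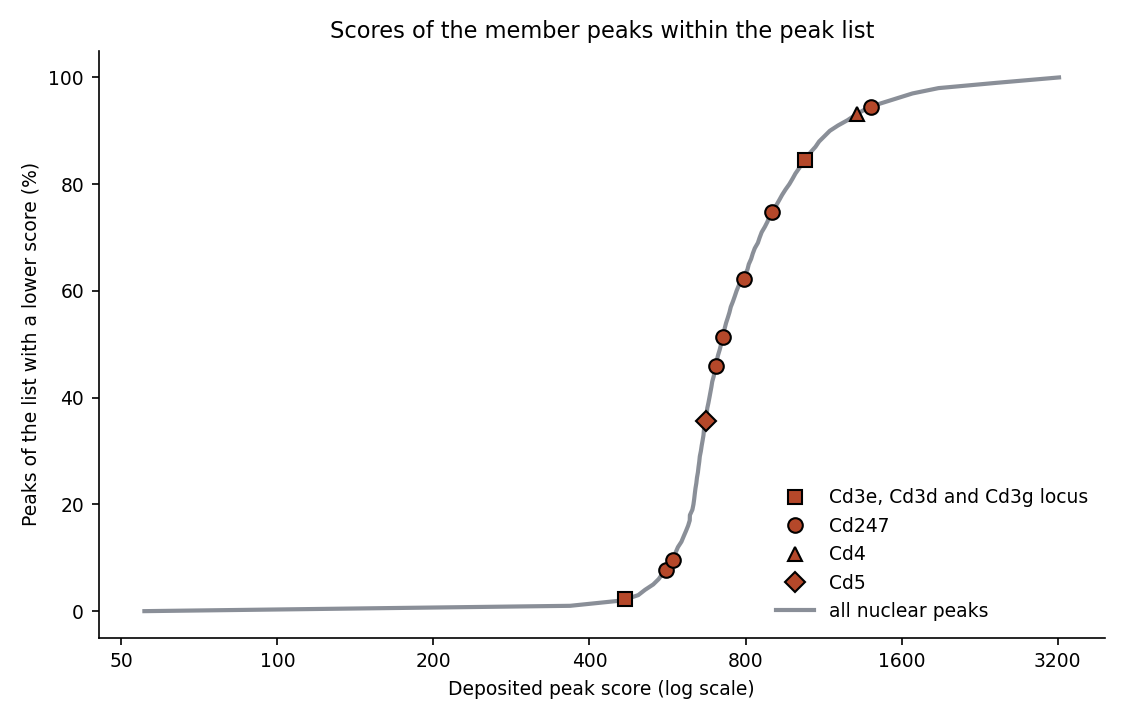
The horizontal axis is the deposited peak score on a log scale and the vertical axis the percentage of nuclear peaks with a lower score; the grey line is the whole list and each red symbol is 1 of the 11 peaks, with a shape for its locus. The symbols run along the line between 2.20 and 94.5%.

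The width of the 11 peaks had a median of 381 bp, beside 370.0 bp over all nuclear peaks, and their GC content one of 50.1%, beside 43.9%. Soft-masked repeats made up a median of 15.0% of their bases, beside 15.5% over the list, and 0 of the 11 were more than 50% soft-masked, beside 9.26% of all nuclear peaks. In 9 of the 11 no 32-base string occurred a second time in the assembly. The exceptions were the pair at the Cd3 cluster, with 0.562% of the strings repeated beside Cd3g and 2.86% at Mpzl2. The most frequent string occurred 2 times in the assembly for the peak beside Cd3g and 67945 times for the peak at Mpzl2. By position, 3 of the 11 were promoter peaks, namely those at Cd247, Mpzl2 and Pou2f1, 6 were intronic and 2 intergenic. The nearest protein-coding start site belonged to a member for 7 peaks, 6 of Cd247 and 1 of Cd5, and to another gene for 4.

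The sequence through which Notch1 acts was then looked for. RBPJ binds DNA at a core of TGGGAA, which was found on either strand in the central 300 bp of 2 of the 11 peaks (18.2%, Wilson 95% interval 5.14 to 47.7), both in Cd247, and of 25.0% of all nuclear peaks over the same length. Over the whole length 2 of the 11 held a core (18.2%), beside 29.5% of all nuclear peaks. The longer RBPJ consensus, searched as CGTGAGAA, CGTGGGAA, TGTGAGAA and TGTGGGAA, of which CGTGGGAA and TGTGGGAA contain the core, was found in 0 of the 11 and in 4.91% of all peaks. The Wilson interval of 0 of 11 reaches 25.9%, so both shares of all peaks lie inside the intervals. A peak without these letters is not thereby without RBPJ.

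Strings of other T cell factors were searched in the same way. TGTGGT, the RUNX string, was found in the centre of 4 of the 11 peaks, all in the Cd247 window, beside 23.2% of all peaks. The matches of the Cd4 and Cd5 peaks, printed above, lay partly or wholly outside the centre and are not in this count. AGATAA, the string of GATA factors, was found in 4 (3 in the Cd247 window and the one at Mpzl2), beside 17.6%. CTTTGA, the string of TCF and LEF factors, was also found in 4, all in Cd247, beside 21.4%. CAGCTG was found in 1, that of Cd4, beside 13.2%, and the ETS string CGGAAG in 0, beside 6.92%. The string GGGTAA, searched as a core-like sequence with no named factor, was found in 2, beside 8.68%. The Wilson interval of 4 of 11 ran between 15.2 and 64.6% and held the share of all peaks for each of these 3 factor strings. These matches are descriptions of sequence and not bound sites.

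**Figure D4:**
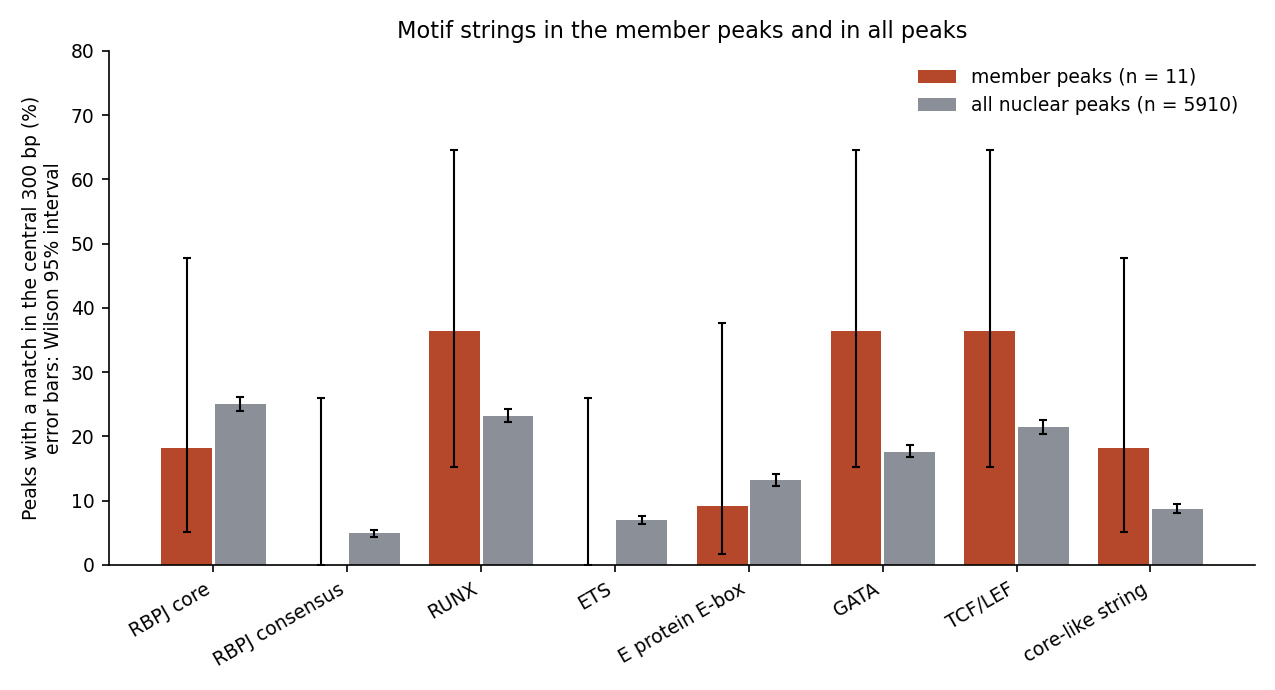
The vertical axis is the percentage of peaks with a match in the central 300 bp and the horizontal axis names the string searched; red bars are the 11 peaks of the CD3 and co-receptor genes, grey bars all 5910 nuclear peaks, and error bars Wilson 95% intervals. The interval of the red bar holds the grey value for each of the 8 strings.

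Promoter sequences of RefSeq (GRCm38.p6, 300 bases that end 50 bases after a start) were matched for 6 of the 10 genes, namely Cd247, Cd3e, Cd3d, Cd3g, Cd8a and Cd5. Those of Cd4, Cd8b1, Cd6 and Cd28 were not matched. The RBPJ core was present in 4 of the 6, those of Cd3e, Cd3g, Cd8a and Cd5, and in 25.6% of all 32851 promoters of that table. None of these 4 promoters had a peak, and the promoter of Cd247, which had one, lacked the core in that window. CAGCTG was present at Cd3g and Cd8a, and in 16.3% of all promoters. TGTGGT and CGGAAG were present in 0 of the 6, beside 16.8 and 16.9% of all promoters. The longer RBPJ consensus was in 0 of the 6 (4.30% of all) and CTTTGA in 2 (16.0%). AGATAA was in 1 (11.2%) and GGGTAA in 1 (8.30%). These are counts over 6 promoters, and those of Cd3e, Cd3d and Cd3g lie in the same cluster. Differences from all promoters were not tested.

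Other genes of the T cell surface and of the receptor's pathway were counted beside these. Of the 10 genes 6 had a peak (60.0%, Wilson interval 31.3 to 83.2). Of 30 other T cell surface receptor genes 20 had one (66.7%, 48.8 to 80.8). Of 32 T cell receptor signalling genes 20 had one (62.5%, 45.3 to 77.1). The intervals of both other lists lay above the 31.7% of all protein-coding genes, while that of the 10 genes held it. The intervals take genes as independent, but Tnfrsf4 and Tnfrsf18, for example, share their highest peak. High scores among the surface receptors were those of Lag3 (1313, the Cd4 peak), Cd7 (1297) and the costimulatory receptor Tnfrsf9 (1232). Among the signalling proteins the highest were those of the kinase gene Prkcq (1887), the adaptor gene Sh2d2a (1762), the kinase gene Zap70 (1587, nearest to the start site of another gene, 4933424G06Rik) and the adaptor gene Lat (1464).

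Marker genes of other cell types found in the thymus, and of gamma delta T cells, the labelled cell type, were counted by the same rule. Of 12 B cell surface receptor genes 3 had a peak. The highest peak of Cd79a scored 1458 and was nearest to a start site of Rps19, and that of Cd72 scored 1450.3 and was nearest to Ccdc107. Of 12 myeloid surface receptor genes 6 had one, with the highest scores at Cd68 (859.9), Siglece (859), Fcgr1 (839) and Fcgr3 (758). Of 12 thymic stroma genes 3 had one (25.0%, 8.89 to 53.2), namely Pecam1 (1659.7), Pdgfrb (679) and Epcam (656). Of 8 genes of gamma delta T cells 5 had one (62.5%, 30.6 to 86.3), and Trdc, Tcrg-C2 and Tcrg-C4 had none. The highest scores were in the windows of Blk (1768), Cd163l1 (1593), Tcrg-C1 (844) and Zbtb16 (835). The first and second of these peaks were nearest to a start site of the named gene. The other peaks lay 30.9 kb from a start site of Tcrg-C1 and 120.1 kb from one of Zbtb16. Their nearest protein-coding start sites were those of other genes. Each interval in this paragraph holds the 31.7% of all protein-coding genes and overlaps the interval of the CD3 and co-receptor genes. Peaks do not measure RNA, so the labelled cell type could not be checked by the expression of its markers, and the part of other cells in the peaks was not tested.

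**Figure D5:**
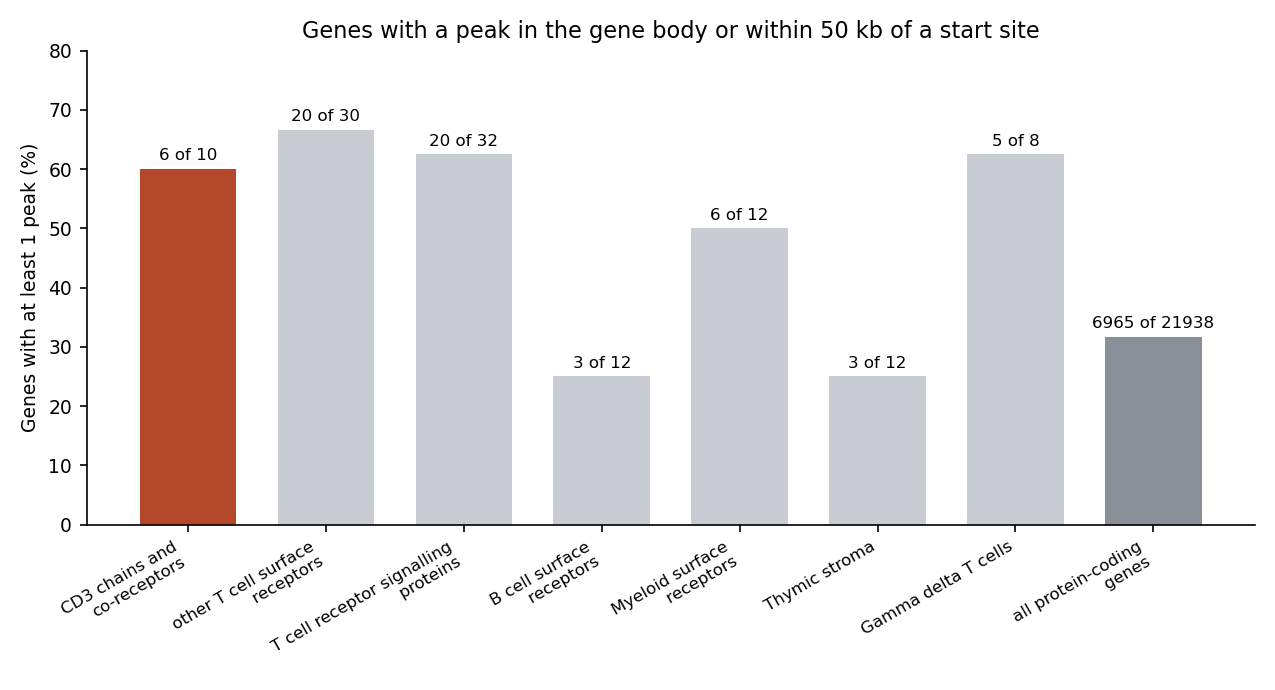
The vertical axis is the percentage of genes with at least 1 peak in the gene body or within 50 kb of a start site, and each bar is a gene list, with the 10 CD3 and co-receptor genes in red, other lists in light grey and all protein-coding genes in dark grey at the right. Numbers over the bars are genes with a peak of genes in the list; 6 of 10 genes stand beside 6965 of 21938.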

How the data were processed

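Chromatin of gamma delta T cells was precipitated with a Notch1 antibody (1 library), and 1 input library is not analysed here. Per the labels' protocols, cells were fixed in 0.5% formaldehyde for 5 min and libraries were amplified by 18 PCR cycles. Bowtie 1.0.0, SAMtools 0.1.18 and mm10 are named by the submitters' processing notes. The deposited list has no header and gives 5913 peaks, 3 of them mitochondrial and left out, each with the authors' score. Peak names start with MACS. Not given in the sources used here are the caller's version, settings and control, the duplicate handling and the depth. With no molecular identifiers, duplicate reads can raise a score.

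Peaks were set on GRCm38 with GENCODE M21 by an overlap of at least 1 bp (Python 3.11.15, pysam 0.24.0, scipy 1.17.1), and 0 reached past a chromosome end. Promoter peaks lay within 1 kb of a protein-coding gene's start site. Motif strings were counted on both strands in the 300 bp around each midpoint. Window and motif counts were tested on simulated data. Named genes were all 10 members, the nearest start site of each of their peaks, and up to 4 genes per list by score. Genes at the nearest peaks outside the windows were chosen after their values were seen. Some genes that this rule names are not reported here. The members and lists were chosen with earlier results of these data known.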

Additional observations from a re-analysis of the deposited data

How the results depend on the processing

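With a window of 5 kb, and likewise with gene bodies alone, 1 gene and 1 locus (Cd247) held 6 peaks, beside 13.9 and 11.6% of protein-coding genes with a peak. With 20 kb, 5 genes at 4 loci held 9 peaks (20.2% of genes), and with 100 kb, 8 genes at 6 loci held 14 (46.2%). Counting a peak only at its nearest protein-coding start site left 2 genes, Cd247 and Cd5, at 2 loci with 7 peaks (15.2%). At or above the median score 3 genes (Cd3e, Cd247 and Cd4) at 3 loci held 6 peaks (19.3%), and in the upper quartile the same 3 genes held 3 (10.8%). Peak midpoints and the limit of 50% on soft-masked bases left the 11 peaks and 6 genes as they were (31.7 and 29.9% of genes). Start sites of protein-coding transcripts alone left 10 peaks at 6 genes (30.6%). Without Cd247, a setting chosen after seeing the data, 5 genes at 3 loci held 4 peaks (31.7% of genes by the same rule). Among these genes, Cd3d and Cd3g had only the peak of 469, which stood above 2.20% of the list. The RBPJ core was found in 18.2% of the 11 whole peaks and in 9.09% of their central 200 bp, beside 29.5 and 17.1% of all nuclear peaks. At or above the median score it was found in 16.7% of the member peaks and 24.6% of all. These settings differ in how many bases or peaks they consider. No paired analysis was possible because each group has 1 library. The unknown depth sets which peaks could be called, so a gene with 0 peaks is one at which none was called in this library.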
